A study of Danio rerio with 12 samples.

Results

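Of the 24806 p63 sites found in zebrafish embryos during gastrulation, 3334 were listed for p63 at that stage alone and never with Sox3. They were 13.4% of the sites (95% Clopper-Pearson interval 13 to 13.9). They had a p63 peak in both libraries of 80% of epiboly, no p63 peak in any of the 4 later p63 libraries, and no base in common with a peak of any of the 6 Sox3 libraries. The members were thus selected on the presence and absence of peaks in the 12 lists, that is on the significance of p63 and Sox3 enrichment in each library. They were 4.58% of the 72866 regions into which all p63 peaks merged at an overlap of at least 1 bp. The other 21472 sites of 80% of epiboly fell into 3 classes by the same criteria. There were 7885 early-only sites with a Sox3 peak, 3621 sites kept later (with a p63 peak in at least 1 later library) without Sox3, and 9966 sites kept later with Sox3.

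p63, encoded by tp63, is a transcription factor of the p53 family that directs the formation and upkeep of stratified epithelia, and in the zebrafish embryo it marks the future epidermis. Sox3 is a SoxB1 factor of the neural plate and of neural progenitors. During gastrulation the ectoderm is divided between these fates, with the neural plate border between them. A transcription factor can occupy an enhancer for a short developmental window and leave it as cells commit, and a peak list records such a site only while enough of the embryo's chromatin carries it.

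The study used ChIPmentation, chromatin immunoprecipitation followed by adaptor insertion with the Tn5 transposase, on pools of whole zebrafish embryos. For p63 there were 2 libraries from wild type (WT) embryos of each of 3 stages: 80% of epiboly, which is late gastrulation, then 24 and 36 hours post-fertilization (hpf). For Sox3 there was a single WT library of 80% of epiboly and a single one of 24 hpf, and the 36 hpf stage had 2 libraries from tp63-/- and 2 from WT embryos. The tp63-/- line carries a short CRISPR-Cas9 deletion with a premature stop codon that removes p63 protein, and its pools held fewer embryos than the WT pools. Each library is represented here by its own list of peaks on build GRCz10. Since whole embryos were used, weaker binding and binding in fewer cells cannot be told apart, and regions free of Sox3 are regions free of listed Sox3 peaks.

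The libraries differed widely in depth, which bears on every statement of absence. The summit tags and the local background of each peak were recovered from its fold enrichment and its p-value, and the lowest background of a list, the genome-wide tag level of that library, stands for its depth. It was 1.41 and 1.71 tags for p63 at 80% of epiboly (36652 and 42668 peaks), 0.839 and 1.09 at 24 hpf (14707 and 25659 peaks), and 0.461 and at most 0.0898 at 36 hpf (16993 and 9538 peaks). Replicate 2 of p63 at 36 hpf thus stood apart as the shallowest library, and without it the rule gave 3386 members. Among the Sox3 lists the single one of 80% of epiboly was the shortest, with 6045 peaks at a lowest background of 0.286 tags. The other Sox3 lists held 29082 to 81578 peaks. At 36 hpf the lowest background was 1.26 and 1.13 tags in the tp63-/- libraries, against 0.686 and 0.494 tags in the WT libraries.

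It was then calculated how many sites would have reached the weakest listed p-value of each later p63 library had they kept the tags over background that they had at 80% of epiboly. For replicate 2 of 24 hpf this held for 98.5% of members and 99.3% of the other sites. For replicate 1 of 24 hpf it held for 80.9% of members and 89.7% of the other sites. At 36 hpf it held for 24.4% of members and 42.7% of the other sites in replicate 1. In replicate 2 of 36 hpf, 0 of 3334 members and 0.652% of the other sites would have reached it. At exactly unchanged enrichment, nearly all members would thus have reached the weakest listed p-value of the deepest later library, and few those of 36 hpf. The calculation held the tags over background fixed, without counting variation. Lists differed even between the 2 libraries of 80% of epiboly, where 53574 regions had a peak in either and 24806 in both. They came from peaks that had to be listed in both libraries of 80% of epiboly, so the shares can be too high. Whether members lost p63 binding later was not tested. Without replicate 2 of 24 hpf the rule gave 3925 members.

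Members were of middle rank in the full peak lists, and of lower rank than the other sites of 80% of epiboly. The rank of a peak is its percentile of −log10 q (the significance after correction for multiple testing) within its own list. The median percentile of members was 51.4 in replicate 1 and 54.0 in replicate 2, against 65.7 and 70.1 for the other sites. A listed peak is what the rule required, so these values are a description and were not tested. Members lay lower on each of the 25 chromosomes in both libraries. The early-only sites with Sox3 had nearly the same rank as members, with medians of 50.9 and 55.3. The kept-later sites stood higher, at 80.5 and 82.1 without Sox3 and at 72.4 and 76.9 with Sox3. Lower rank thus went with the absence of later peaks, with and without Sox3. Few members reached the top of the lists: 5.76% of members (192 sites) had a mean percentile of at least 90, against 15.9% of the other sites (3417 sites).

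Members had fewer summit tags than the other sites, on a lower local background. They were near the medians of the full lists, 19.0 and 21.0 summit tags and 5.88 and 5.63 in fold enrichment (replicates 1 and 2). At the summit, members had a median of 19.0 and 21.0 tags in replicates 1 and 2, against 22 and 26 tags at the other sites and 19.0 and 23.0 at the early-only sites with Sox3. The fold enrichment in the lists had medians of 5.98 and 5.83 in members (quartiles 5.19 to 7.06 and 4.95 to 6.97), against 6.41 and 6.39 in the other sites. The local background was taken from the same p63 library, since the stated peak call names no control. It can thus include tags of the peak itself and of neighbouring sites, and their part was not tested. Around members the local background was also lower, with medians of 2.16 and 2.68 tags, against 2.50 and 3.15 tags at the other sites and 2.42 and 3.05 at the early-only sites with Sox3. The median ratio of summit tags to background of members, 8.45 and 7.72, lay below that of the other sites, 8.84 and 8.25. It lay above that of early-only sites with Sox3, 7.83 and 7.23, in each library. In replicate 1, 11% of members (368 sites) sat at the lowest background of the library, with no excess of tags in the surrounding 10 kb, against 6.04% of the other sites (1297 sites). In replicate 2 this held for 10.6% of members and 5.41% of the other sites. The Sox3-free sites kept later lay between, at 7.62% and 6.93%, and the early-only sites with Sox3 at 5.91% and 5.26%.

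**Figure D1:**
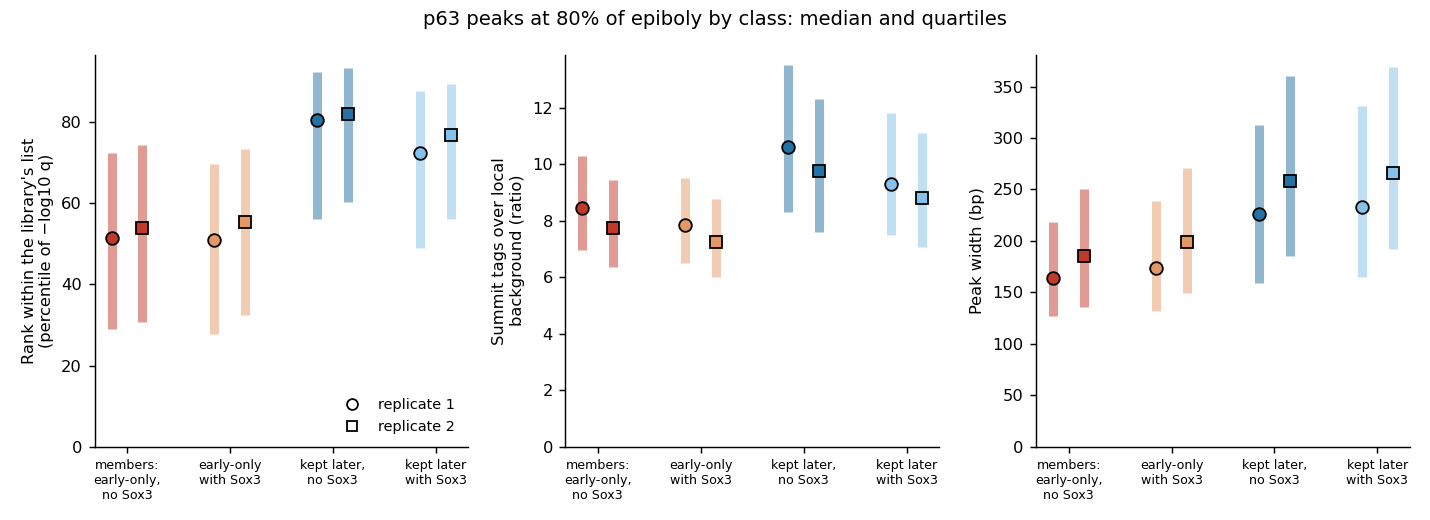
Rank within the list (percentile of −log10 q), ratio of summit tags to local background, and peak width in bp for the 4 classes of p63 sites at 80% of epiboly. Circles and squares are medians in replicates 1 and 2 and bars span the quartiles. Members lie near the early-only sites with Sox3 in rank (medians 51.4 and 54.0, against 50.9 and 55.3), have a higher ratio than these, and have the narrowest peaks of the 4 classes.

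The share of sites without Sox3 was not even over the rank. Sites were divided into 5 quintiles of their mean percentile over both libraries. From the lowest to the highest quintile there were 1063, 814, 651, 496 and 310 members, which made up 21.4%, 16.4%, 13.1%, 10% and 6.25% of the sites of each quintile. This decline followed the early-only sites as a whole, which were 68.9% of the lowest quintile and 15.5% of the highest. Among early-only sites alone, members made up 31.1%, 28.0%, 26.8%, 29.2% and 40.4%, so that the Sox3-free share was highest at the top (interval 36.9 to 44.0%). Among kept-later sites the Sox3-free share ran 25%, 23.2%, 21.3%, 23.8% and 34.4%, with the same dip in the middle and the same maximum in the highest quintile. In each quintile the early-only sites had the larger Sox3-free share. Over all quintiles it was 29.7% (28.9 to 30.6) of early-only sites and 26.7% (25.9 to 27.4) of kept-later sites. These intervals cover counting error only, and neighbouring sites are not independent. Sox3 overlap was judged on the merged region, which at kept-later sites includes the later p63 peaks. Median region widths were 222 bp in members and 240 bp in early-only sites with Sox3. They were 339 and 338 bp in kept-later sites without and with Sox3. A wider region has more bases that could touch a Sox3 peak, and its part in these shares was not tested.

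**Figure D2:**
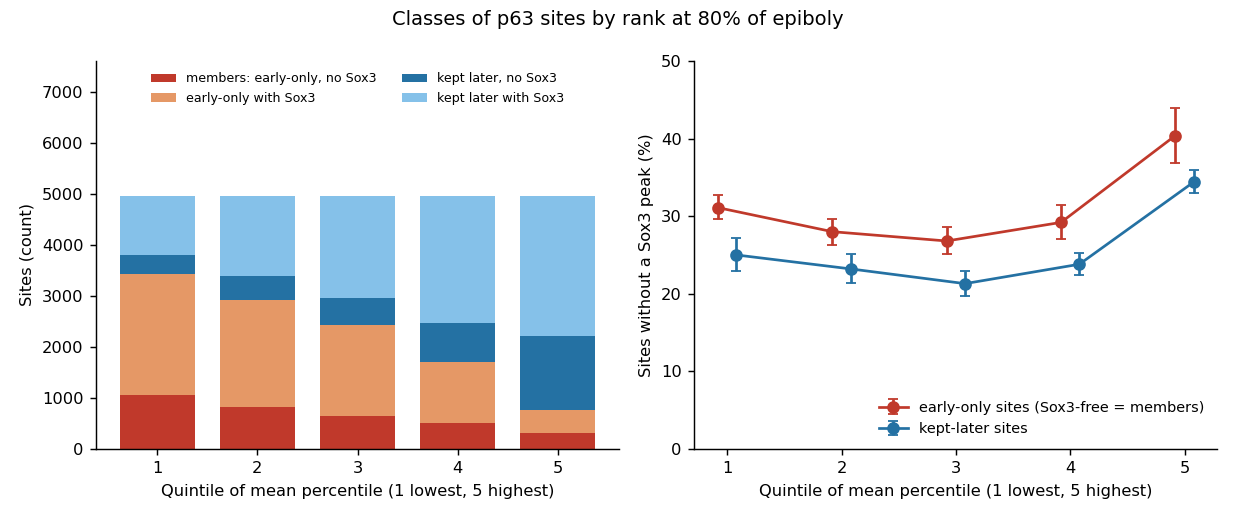
Left, number of sites of each class per quintile of the mean percentile at 80% of epiboly. Right, share of early-only sites (members) and of kept-later sites without a Sox3 peak, with 95% Clopper-Pearson intervals. Members decline from 1063 in the lowest to 310 in the highest quintile, while their share of early-only sites is highest, 40.4%, in the highest quintile.

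The 10 strongest members were the upper end of the class, with more summit tags and wider regions than the median member. The highest mean percentile belonged to chr3:20841666-20842081, where 76 summit tags stood over a background of 3.02 in replicate 1 and 82 over 4.48 in replicate 2. Its fold enrichment was 19.2 and 15.2, the summits of both libraries lay 2 bp apart, and the nearest Sox3 peak of any list lay 5261 bp away. The second, chr16:41548605-41549059, had 78 and 85 summit tags and its nearest later p63 peak at 66488 bp. The site chr10:3326923-3327359 had fewer tags (47 and 51) but the highest fold enrichment of the 10 in each library, 19.9 and 19.2. It stood on the lowest background of both libraries, 1.41 and 1.71 tags, and its next p63 site lay 31927 bp away. By contrast chr25:19051641-19052167, with 82 and 92 tags, lay in a dense neighbourhood. Its background was 6.71 and 8.71 tags, the next p63 site of the stage lay 169 bp away, a Sox3 peak of tp63-/- replicate 1 lay 83 bp away and a p63 peak of 24 hpf lay 314 bp away.

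The other 6 of the 10 were chr19:20005738-20006411, chr14:26048576-26048934, chr2:32489824-32490395, chr20:35964286-35964711, chr15:27267883-27268272 and chr16:16562810-16563215. Over all 10, fold enrichment ran 10.8 to 19.9 in replicate 1 and 9.58 to 19.2 in replicate 2, and summit tags ran 47 to 82 and 51 to 92. Replicate 2, the deeper library, had more summit tags than replicate 1 at each of the 10. The summits of both libraries lay 1 to 46 bp apart at these sites. Sites of this strength were far from the thresholds of the 80% epiboly lists, and the gap to the nearest Sox3 peak was 83 to 19482 bp. All 10 stayed members under each alternative processing tried but 1: where a Sox3 peak within 100 bp counted as overlapping, chr25:19051641-19052167 was lost and 9 remained. Most alternatives loosen the conditions of absence or set limits that these peaks far exceed, so they could hardly remove any of the 10.

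**Figure D3:**
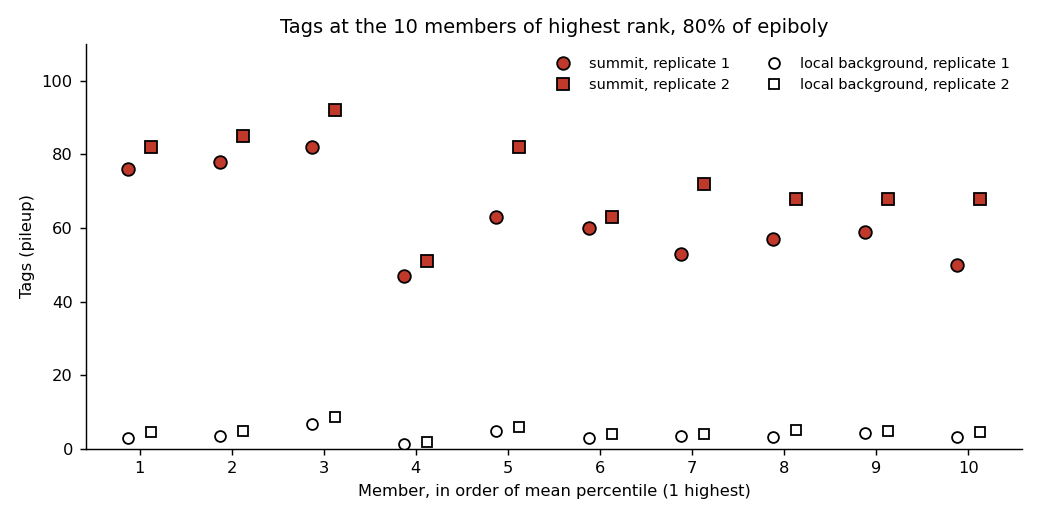
Summit tags (filled) and local background tags (open) of the 10 members of highest mean percentile, in replicate 1 (circles) and replicate 2 (squares) of p63 at 80% of epiboly. Summits carry 47 to 92 tags and backgrounds 1.41 to 8.71 tags, and replicate 2 lies above replicate 1 at each site.

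At the other end, the weakest members were just inside the significance threshold of the lists. The lowest mean percentile was that of chr5:65367573-65367681, with 13 and 14 summit tags over 2.34 and 3.14 and −log10 q of 4.32 and 3.73. It was followed by chr16:19090961-19091156 (12 and 11 tags) and chr3:9731104-9731377 (11 and 14 tags). In all, 9.51% of members (317 sites) had a −log10 q under 5 in at least 1 library, against 5.28% of the other sites (1134 sites). A fold enrichment of at least 5 in both libraries was reached by 65.1% of members and 73.2% of the other sites.

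Members were narrow. The median width of the peak was 164 bp in replicate 1 and 185 bp in replicate 2, against 207 and 237 bp for the other sites. The difference, averaged over both libraries, was −47.5 bp, and members were the narrower ones on all 25 chromosomes in each library. Early-only sites with Sox3 had medians of 174 and 199 bp, and kept-later sites without Sox3 had 226 and 258 bp. Width grew with rank among members, among early-only sites with Sox3 and among the other sites together, so members were also compared within quintiles of rank. In the lowest quintile the medians were 134 and 145 bp for members, against 143 and 161 bp for the other sites. In the highest quintile they were 289 and 322 bp for members, against 344 and 384 bp for the other sites. Members were narrower than the other sites, and also than the early-only sites with Sox3, in each of the 5 quintiles and in both libraries. The rule bears on width itself, because a narrow region has fewer bases that could touch a Sox3 or a later p63 peak. Its part in these differences was not tested. The merged region of a member had a median width of 222 bp (interval 218 to 225), against 297 bp (295 to 299) for the other sites, whose regions can include later peaks. Nearly all members were simple regions, with 1 peak in each library at 98.9%, against 96.4% of the other sites.

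Both libraries placed the members about as closely as the other sites. The rule did not use summit positions, but it required peaks of both libraries in the same merged region, which limits the distance. The same requirement held for the other sites. The summits of replicates 1 and 2 lay a median of 32.0 bp apart in members (interval 30 to 34.0) and 32.0 bp apart in the other sites (31.0 to 33.0). They were within 100 bp in 90.2% of members and 88.5% of the other sites. Within the other classes the median was 37.0 bp for early-only sites with Sox3, 24.0 bp for kept-later sites without Sox3 and 32.0 bp for those with Sox3. Among early-only sites the Sox3-free ones thus had the shorter summit distance, and the same order held among kept-later sites. Peaks of the Sox3-free sites were also the narrower in both pairs of classes. The part of peak width in the summit distance was not tested. Within quintiles of rank the median of members was 43.0, 31.0, 29.0, 22 and 19.0 bp from the lowest to the highest, against 48.0, 39.0, 34.0, 29.0 and 20 bp for the other sites. Members had the shorter distance, and also the narrower peaks, in each quintile. The percentiles of a site in both libraries differed by a median of 15.6 points in members and 11.7 points in the other sites. The difference was 17.2 points in early-only sites with Sox3, 6.54 points in kept-later sites without Sox3 and 9.46 points in those with Sox3, so that both early-only classes had the larger values.

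Members were more isolated along the chromosomes. The median gap to the nearest other p63 site of 80% of epiboly was 12781 bp for members (interval 11867 to 13656) and 10479 bp for the other sites (10265 to 10715). Another site lay within 10 kb of 43.1% of members (1438 sites, interval 41.4 to 44.8), against 48.3% of the other sites (10366 sites) and 47.6% of all sites together. The share of members was the lower one on 23 of the 25 chromosomes, with chromosomes 9 and 14 as exceptions. Within 50 kb the shares were 83.3% of members and 87.9% of the other sites. No other site lay within 100 kb of 6.81% of members (227 sites), against 4.28% of the other sites (918 sites). Kept-later sites without Sox3 were spaced similarly to members, with a median gap of 11787 bp and 45.5% within 10 kb. Both classes with Sox3 were denser, with median gaps of 10620 bp (early-only) and 10038 bp (kept later). Wider spacing thus went with the absence of Sox3 at sites with and without later p63. Within quintiles of rank the gap of members exceeded that of the other sites in each quintile, with 13656 against 12230 bp in the lowest and 10865 against 8264 bp in the highest. The share with another site within 10 kb was lower for members in each quintile, but by unequal amounts. It was 42.2% against 43.8% in the lowest, 48.4% against 48.9% in the second highest and 46.1% against 55.2% in the highest.

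The nearest site of a member was another member in 16.3% of cases (15.1 to 17.6), where the nearest site of an early-only site with Sox3 was a member in 12.5% (11.7 to 13.2). For sites kept later without Sox3 it was 14.8%, and for those with Sox3 11.9%. Members were 13.4% of all sites. Each class was the nearest site more often for its own kind than for any other class. The nearest site was of the same class in 35.4% of early-only sites with Sox3. For kept-later sites this held in 18.5% of those without Sox3 and 41.9% of those with Sox3. Chains of members with gaps of at most 10 kb were short, with 1 chain of 4 members, 9 chains of 3 and 134 pairs. The longest held 4 members between chr8:50287027-50287247 and chr8:50299295-50299418, with fold enrichments of 3.91 to 9.69. The 6 Sox3 lists together held 5 peaks in the spaces between them, which need not be 5 separate places. Of the chains of 3, the one of shortest span lay within 2.18 kb, on chromosome 14 from 25878310 to 25880493, on a high background of 7.72 to 11.2 tags. The next in span lay within 2.41 kb on the far part of chromosome 4, from 67528821 to 67531232. Neither of these chains of 3 held a Sox3 peak or a later p63 peak of any list. Over all sequences, 306 members (9.18%) had another member within 10 kb, and the median gap from member to member was 104173 bp.

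Members were spread over the genome much as the other sites were. They numbered 89 (chromosome 22) to 202 (chromosome 7) per chromosome, and 50 lay on sequences outside chromosomes 1 to 25 (1.5% of members, against 1.97% of the other sites). Their share of the p63 sites ran from 11.2% on chromosome 23 to 15.9% on chromosome 4. The interval included the overall 13.4% on 24 of the 25 chromosomes, the exception being chromosome 23 (9.37 to 13.1). These intervals were not corrected for the number of chromosomes, and neighbouring sites are not independent, so chromosome 23 is not singled out. The outer 10% at each end of the chromosomes held 19.2% of members (17.9 to 20.6) and 20.3% of the other sites (19.8 to 20.9), and these intervals overlapped.

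Chromosome 4, whose long arm is rich in repeats in zebrafish, had the highest share of members and the fewest per length. It carried 117 members among 737 sites, that is 3.51% of all members (2.91 to 4.19) and 2.89% of the other sites (2.67 to 3.12). Members numbered 1.53 per Mb there, against 2.45 per Mb over all chromosomes and at most 2.97 per Mb on chromosome 19. A boundary at 30 Mb, chosen after the values were seen, divides the chromosome. Beyond it, 29 of 114 sites were members (25.4%, 17.7 to 34.4), against 88 of 623 sites in the first 30 Mb (14.1%, 11.5 to 17.1). Of the early-only sites alone, 59.2% (44.2 to 73.0) were members beyond 30 Mb, against 29.1% (24.1 to 34.6) before it. The members beyond 30 Mb were not weak, with median percentiles of 58.0 and 55.4, against 56.8 and 52.9 before it. Their background was at the library minimum (median ratio 1.00 in both libraries, against 1.70 and 1.68 before 30 Mb), and p63 sites of all classes were sparse there, at 2.45 per Mb, against 20.8 per Mb before 30 Mb. Whether read mapping in repeats plays a part was not tested.

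**Figure D4:**
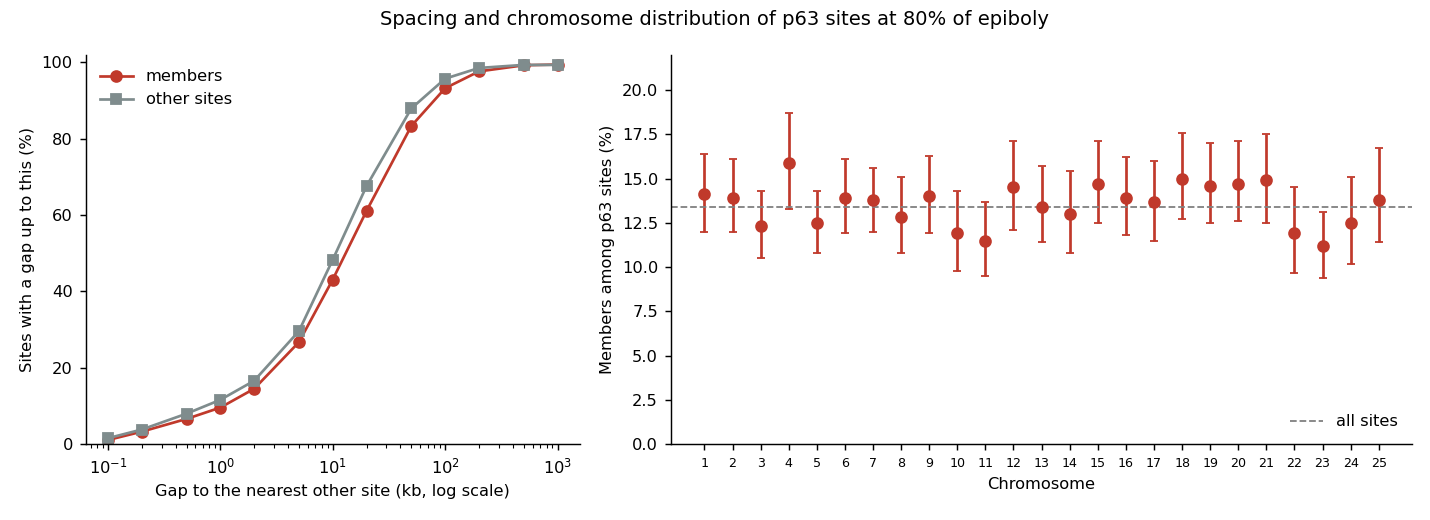
Left, cumulative share of members and of the other p63 sites of 80% of epiboly by the gap to the nearest other site (kb, log scale). Right, share of members among the p63 sites of each chromosome with 95% Clopper-Pearson intervals, with the overall 13.4% as a dashed line. At 10 kb the curves stand at 43.1% for members and 48.3% for the other sites. Only the interval of chromosome 23 excludes the overall share, with no correction for the number of chromosomes.

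The rule turns on the Sox3 lists, and on a few bases at its edges. Of the 11219 early-only sites, 3334 had no Sox3 peak, 1489 had one in a single list, and 944 had one in all 6 lists. Of the 1489, 864 had their only Sox3 peak in the 24 hpf library, 168 in that of 80% of epiboly, 252 and 138 in tp63-/- replicates 1 and 2, and 53 and 14 in WT replicates 1 and 2 at 36 hpf. The 24 hpf list thus decided more sites than any other Sox3 list, and without it there were 4198 members. Just inside the rule, chr14:7654094-7654482 adjoined a Sox3 peak of tp63-/- replicate 2 with a gap of 0 bp. The next members were chr23:18955628-18955900, 1 bp from a peak of tp63-/- replicate 1, and chr12:36112060-36112265, 2 bp from a peak of 24 hpf. Just outside it, chr10:1908977-1909205 shared 5 bp with a Sox3 peak of 24 hpf. The sites chr4:72718419-72718618 and chr5:24207962-24208201 each shared 6 bp with a peak of tp63-/- replicate 1. Such edges were rare: 2.13% of members (71 sites) had a Sox3 peak within 100 bp, and 0.862% of early-only sites with Sox3 (68 of 7885) shared at most 50 bp with one.

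Sox3 peaks nevertheless lay in the neighbourhood of many members. The nearest Sox3 peak of any list was a median of 2852 bp away (interval 2720 to 3010), and 21.2% of members (708 sites) had one within 1 kb. Among kept-later sites without Sox3, which share the requirement of no overlap, the median was 3089 bp (2927 to 3263) and 18.7% (17.4 to 20) had one within 1 kb. That requirement covered more bases at the kept-later sites, whose merged regions had a median width of 339 bp, against 222 bp in members. The part of region width in this difference was not tested. By library, 1.80% of members had a Sox3 peak within 1 kb in the list of 80% of epiboly, against 1.88% of kept-later sites without Sox3 and 1.84% of both together. In the 24 hpf list the share was 13.2% of members, against 11.4% of kept-later sites and 12.3% of both together. At 24 hpf the intervals overlapped (12 to 14.4% and 10.4 to 12.5%).

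At 36 hpf the neighbourhood of members was compared between tp63-/- and WT embryos. The rule had used these same 4 Sox3 lists, and sites that overlapped a peak in any of them were left out. The shares and the test below therefore describe only the surroundings of the sites that remained. A Sox3 peak lay within 1 kb of 13.8% and 11.3% of members in the tp63-/- libraries, against 9.09% and 5.40% of members in the WT libraries. Over all Sox3-free sites of 80% of epiboly the shares were 13.1% and 11% in tp63-/- and 8.76% and 5.35% in WT. Both tp63-/- libraries thus lay above both WT libraries, for members as for the Sox3-free sites at large. The mean for members was 12.5% ± 1.74 in tp63-/- and 7.24% ± 2.61 in WT (SD, n = 2 each), a difference of 5.29 points. An exact two-sided permutation test gave p = 0.333, the smallest value that 2 against 2 libraries allow, so no difference could pass the threshold in this design. The difference moved with the length of the lists. With each of the 4 lists limited to its 29082 most significant peaks, an alternative chosen after seeing the data, the shares were 6.36% and 6.21% in tp63-/-, against 5.70% and 5.40% in WT, a difference of 0.735 points (exact permutation p = 0.333). With all lists limited to the shortest of their factor, which also redefined the members, the difference was −0.0755 points (exact permutation p = 1.0). The kept-later sites without Sox3 had a mean of 11.6% ± 1.27 in tp63-/- and 6.88% ± 2.23 in WT (SD, n = 2 each), so a difference of 4.74 points was present there too (exact permutation p = 0.333).

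**Figure D5:**
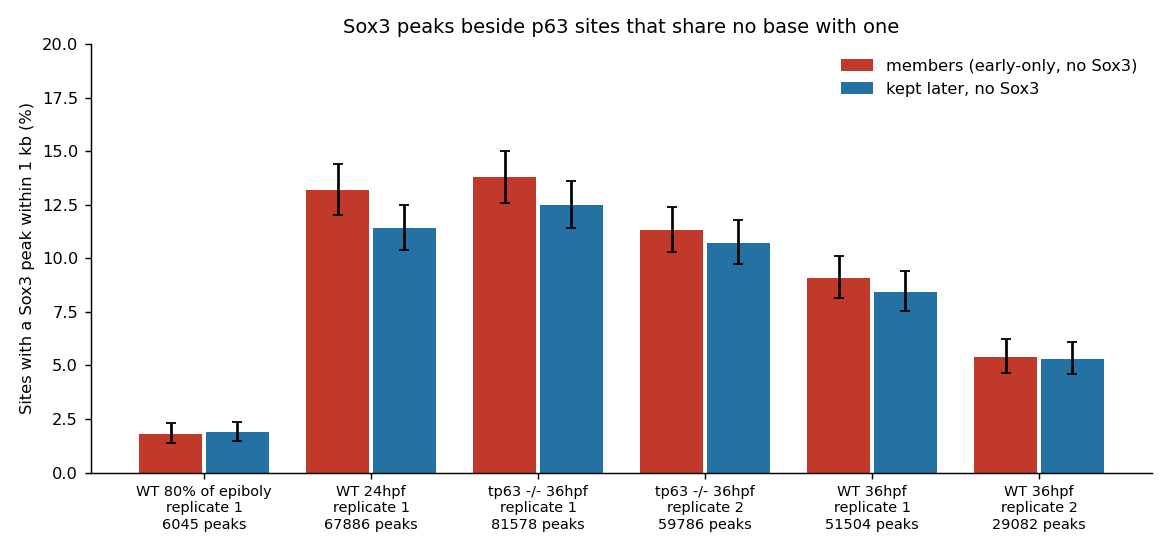
Share of members and of kept-later p63 sites without Sox3 that had a Sox3 peak within 1 kb, in each Sox3 library, with the number of peaks of that list under it. Bars are shares with 95% Clopper-Pearson intervals. Shares run from 1.80% of members in the shortest list to 13.8% in the longest, and members and kept-later sites lie close together in each library.

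Later p63 peaks also lay near some members. The nearest one of any of the 4 later lists was a median of 9574 bp away (interval 8900 to 10138), and 9.42% of members (314 sites) had one within 1 kb. At 24 hpf the share within 1 kb was 3.90% and 6.81% of members in replicates 1 and 2, against 4.63% and 8.95% of early-only sites with Sox3. Over all early-only sites it was 4.41% and 8.32%. At 36 hpf it was 3.96% and 2.52% of members, against 3.68% and 1.75% of early-only sites with Sox3, and 3.76% and 1.98% of all early-only sites. The share of members was thus below that of the early-only sites with Sox3 in both 24 hpf libraries, and above it in both 36 hpf libraries. Only in replicate 2 of 24 hpf did the intervals not overlap (5.98 to 7.72% and 8.33 to 9.61%). They overlapped in replicate 1 of 24 hpf (3.27 to 4.61% and 4.18 to 5.12%). They also overlapped in replicates 1 (3.32 to 4.68% and 3.27 to 4.12%) and 2 (2.01 to 3.11% and 1.47 to 2.06%) of 36 hpf. The intervals cover counting error over sites only, and the classes were not tested against each other. Both classes had been selected for no overlap with these same lists. Their median region widths were 222 and 240 bp, and the part of width was not tested. The closest pairs were chr2:48203249-48203487 and chr16:39647646-39648066, each 1 bp from a p63 peak of 24 hpf, and chr23:27984500-27984914, 8 bp from one. Only 0.660% of members (22 sites) had a later p63 peak within 100 bp.

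Most members had neither kind of peak close by. Neither a Sox3 peak nor a later p63 peak lay within 1 kb of 74.9% of members (2497 sites, interval 73.4 to 76.4). Within 10 kb, 48.7% of members (1625 sites) had no later p63 peak and 15.0% (499 sites) had no Sox3 peak. For 11.6% of members (388 sites, interval 10.6 to 12.8) neither lay within 10 kb. The rule had already left out sites that overlapped either kind of peak. These shares were not calculated for the other sites, so they describe the members alone.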

How the data were processed

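The authors aligned the reads of 12 ChIPmentation libraries to GRCz10 (danRer10) with Bowtie. They called narrow peaks in each library with MACS2, at a false discovery rate limit of 0.001. Tool versions for these lists are not given in the sources used here. The stated MACS2 call names no control library. Each deposited list gives a fold enrichment, which is a ratio of summit to local background tags with a pseudocount of 1. The deposited −log10 p and −log10 q are the significance of the summit, and the deposited score is −log10 q times 10, rounded down, in all but 11 peaks. Libraries were not scaled to each other, and values were therefore compared within lists. Summit tags and background were solved from fold enrichment and −log10 p by the Poisson formula (largest error of −log10 p 0.000217).

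Peaks sharing at least 1 bp were merged. Coordinates are 1-based. Gaps are bases between region ends, and neighbours were counted within 1 kb or 10 kb. Intervals are 95% Clopper-Pearson intervals for shares and binomial order-statistic intervals for medians; they cover counting error only. The groups follow the antibody, genotype and stage of the labels, and the study describes the replicates as biological. Scripts in Python with numpy, pandas and scipy were tested on simulated data. The members, lists and alternatives were chosen with earlier results of these data known. Regions named in the text were, on chromosomes 1 to 25, the 10 members of highest and the 3 of lowest mean percentile, the 3 largest chains (ties by the shortest span), the 3 members nearest to a Sox3 peak and to a later p63 peak, and the 3 early-only sites with the smallest overlap with a single Sox3 peak. Genes and sequences at the regions were not analysed here, since no annotation or genome of this build was used.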

Additional observations from a re-analysis of the deposited data

How the results depend on the processing

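Members kept the lower rank, the narrower peaks and the smaller share with a neighbour within 10 kb under all alternatives tried. The difference in that share, members minus other sites, was −5.15 points in the main setting and varied in size. It shrank to −1.39 points with −log10 q of at least 10 in the 80% epiboly p63 lists. With these lists limited to the shortest p63 list it was −2.22 points. Without replicate 2 of p63 at 80% of epiboly it was −8.94 points. The 10 named members of highest rank stayed members in each alternative, except for 1 lost where a Sox3 peak within 100 bp counted as overlapping. Most alternatives could hardly remove them. Fold enrichment of at least 5 in all lists gave a rank difference (members minus other sites, percentile points) of −12.4, a width difference of −54.5 bp, 29.2% of members with a neighbour within 10 kb and a summit distance of 28.0 bp. With −log10 q of at least 10 in all lists there were 1858 members (16.8% of sites), with −4.28 points, 29.7% with a neighbour and 24.0 bp. The same limit in the 80% epiboly p63 lists alone left 959 members (8.69%), with −4.33 points, 30.8% and 22 bp. With all lists limited to the shortest of their factor there were 1324 members (19.6%), with −4.27 points, −56.5 bp in width, 21.4% with a neighbour, 2.79% on chromosome 4, summits 22 bp apart and a Sox3 proximity difference of −0.0755 points, whose direction was opposite. Limiting the 80% epiboly p63 lists alone to the shortest p63 list left 487 members (7.20%), with −2.87 points, −62.5 bp, 22.8% and 21.0 bp. Strict limits leave fewer sites and only high ranks, which narrows the rank difference and thins the neighbours by construction. A peak in either library of 80% of epiboly gave 15555 members (29.0%), with −24.2 points, −55.0 bp and 62.1% with a neighbour. Requiring the Sox3 overlap to reach 0.5 of the shorter interval gave a share of 14.1% and −16.4 points. Within 50 kb 83.3% of members had a neighbour, and a later p63 peak lay within 500 bp of 2.62% and within 5 kb of 16.1% of members on average, against 4.30% within 1 kb.

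Leaving out 1 library at a time gave 3348 to 10595 members, a share of 13.5 to 24.9%, rank differences of −24.6 to −13.8 points, width differences of −59.0 to −45.5 bp and 42.6 to 55.8% with a neighbour. Only the 80% epiboly p63 libraries moved the number by over 1.5 times, since a single library then defined the sites: 10595 members without replicate 1 and 8551 without replicate 2. The Sox3 proximity difference was 3.42 to 7.23 points; without a 36 hpf Sox3 library a group held a single library, and these values carry no test. As paired by number, a replicate block gave differences of 4.68 and 5.91 points and the same mean, 5.29 points (exact p = 0.5, the smallest 2 pairs allow), and the labels do not say that equal numbers share a batch. A peak list shows only what passed its threshold, so a region without a listed peak may still be bound.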
